A study of Mus musculus with 6 samples.

Results

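Mouse miR-150 and miR-342 were followed in the kidney through the 4 mature strands of their hairpins, mmu-miR-150-5p, mmu-miR-150-3p, mmu-miR-342-3p and mmu-miR-342-5p, written below without the species prefix. The members were the 4 rows of the deposited miRNA table with these names, among 1542 rows in all. The rows were taken by name and not by a cut on their counts, but earlier results of these data were known when the members were chosen. A microRNA (miRNA) is a short RNA that represses messenger RNAs, and each hairpin can give a strand from its 5′ arm (5p) and from its 3′ arm (3p). The table held 3 kidney libraries of female MRL/lpr mice (MRL/MpJ-Fas<lpr>/J), aged 17 weeks, and 3 of female C57BL/6 wild-type mice of the same age. The lpr mutation disables Fas, a death receptor gene, and on the MRL background it leads to a disease like lupus, nephritis included, without any treatment. MRL mice without the mutation are not analysed here, so strain background, Fas mutation and disease cannot be told apart. Nothing in the labels ties each library to its own mouse, so the p-values reflect only how much these libraries differ among themselves, which may be technical. Total counts ran from 5259528 to 6460200 in MRL/lpr and from 5430246 to 6773829 in C57BL/6 libraries. The 11 listed miRNAs of kidney epithelium summed to at least 73638 CPM (counts brought to the same total in each library, after TMM scaling) in every library. That sum does not go against the tissue label, but miR-215-5p of the list was nearly absent, at no more than 0.71 CPM.

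miR-150 is abundant in mature, resting B cells, T cells and natural killer cells and falls when lymphocytes are activated. In mouse B cells its 5p strand represses Myb, a transcription factor gene needed for lymphocyte development. miR-342 is made from an intron of Evl, a gene for an actin regulator of the Ena/VASP family, and is expressed in many blood cells, lymphocytes among them. In whole tissue these miRNAs are commonly read as a trace of infiltrating or resident leukocytes. The comparison asks how their kidney levels differ between lupus-prone and control mice. In bulk tissue, fewer cells of a type and less RNA per cell cannot be told apart.

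The hairpin of miR-150 lies at chr7:45121757-45121821 on the plus strand (GRCm38, GENCODE M21) and overlaps no other gene in that annotation. The hairpin of miR-342 lies at chr12:108658620-108658718, on the plus strand. It falls within Evl, which spans 108554720 to 108688516 on the same strand, and overlaps no annotated exon of it, so it is intronic. RefSeq (GRCm38.p6) gave mature sequences for 3 of the 4 members, shown 5′ to 3′ because the seed (bases 2 to 8, in capitals) is the stretch through which a miRNA mainly recognises its targets.
miR-342-3p: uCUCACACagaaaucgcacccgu
miR-342-5p: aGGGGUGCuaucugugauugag
miR-150-3p: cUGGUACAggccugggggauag
These 3 seeds differ from each other. None of the other 995 named entries of the table for which RefSeq held a sequence shared a seed with any of them. The nearest of those entries were at least 7 single-base changes, insertions or deletions away (miR-547-3p, for miR-342-5p). The miR-342 hairpin is shown whole, with the mature strands in capitals (5p first, then 3p), because both of its strands were counted.
Mir342 hairpin: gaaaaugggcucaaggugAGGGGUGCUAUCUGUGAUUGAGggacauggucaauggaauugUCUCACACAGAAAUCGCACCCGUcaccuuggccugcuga

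miR-150-5p and miR-342-3p were the main strands, and neither passed the test for a strain difference when all 6 libraries were used. The MRL/lpr libraries lay above C57BL/6 replicates 1 and 3 for both, while C57BL/6 replicate 2 lay above every MRL/lpr library. That library also stood apart in other leukocyte miRNAs, so the results are given with and without it.

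miR-150-5p had 871, 963 and 1267 CPM in MRL/lpr replicates 1, 2 and 3, against 612, 1349 and 666 CPM in C57BL/6 replicates 1, 2 and 3. The groups overlapped, since C57BL/6 replicate 2 was the highest of the 6 and the other C57BL/6 libraries were the lowest. The level averaged 1034 ± 207 CPM in MRL/lpr and 875 ± 411 CPM in C57BL/6 (SD, n = 3 each). The log2 fold change (MRL/lpr over C57BL/6) was 0.24 ± 0.31 (SE; quasi-likelihood test in edgeR, p adjusted by Benjamini-Hochberg = 0.689), and a span of 2 SE to each side runs from -0.38 to 0.86. Raw counts were from 4960 to 7651 in MRL/lpr and from 2992 to 8396 in C57BL/6, so counting error was small beside the spread between libraries. By level, this strand ranked 75th, 70th and 63rd among all entries in MRL/lpr replicates 1, 2 and 3, and 82nd, 56th and 81st in C57BL/6 replicates 1, 2 and 3.

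miR-342-3p had 298, 340.04 and 456 CPM in MRL/lpr replicates 1, 2 and 3, against 213, 607 and 263 CPM in C57BL/6 replicates 1, 2 and 3. The order of the libraries was the same as for miR-150-5p, and the groups overlapped in the same way. The level averaged 365 ± 82.1 CPM in MRL/lpr and 361 ± 214 CPM in C57BL/6 (SD, n = 3 each). The log2 fold change was 0.014 ± 0.39 (SE; edgeR adjusted p = 0.990), with a span of 2 SE to each side from -0.77 to 0.80, and its sign turned under upper-quartile scaling (-0.0024). The spread was wider in C57BL/6, where the SD was 59.3% of the mean, than in MRL/lpr, where it was 22.5%. For miR-150-5p the same shares were 46.9% in C57BL/6 and 20.02% in MRL/lpr, and the difference in spread was not tested.

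The minor strands were rare. miR-342-5p had 3.53, 4.46 and 7.45 CPM in MRL/lpr replicates 1, 2 and 3, against 4.71, 8.51 and 3.27 CPM in C57BL/6 replicates 1, 2 and 3. The groups overlapped, and the log2 fold change was -0.098 ± 0.47 (SE; edgeR adjusted p = 0.928), turning to 0.041 when libraries were scaled by size alone. miR-150-3p had 6, 7 and 10 counts in MRL/lpr replicates 1, 2 and 3, against 3, 12 and 5 counts in C57BL/6 replicates 1, 2 and 3. Exact 95% Poisson intervals, which cover counting error only, ran from 4.80 to 18.4 counts for the highest MRL/lpr library and from 6.20 to 21.0 for the highest C57BL/6 library. These intervals overlap, and with so few counts miR-150-3p did not pass the filter on low counts and was not tested. It was the 1 member of 4 left out.

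**Figure D1:**
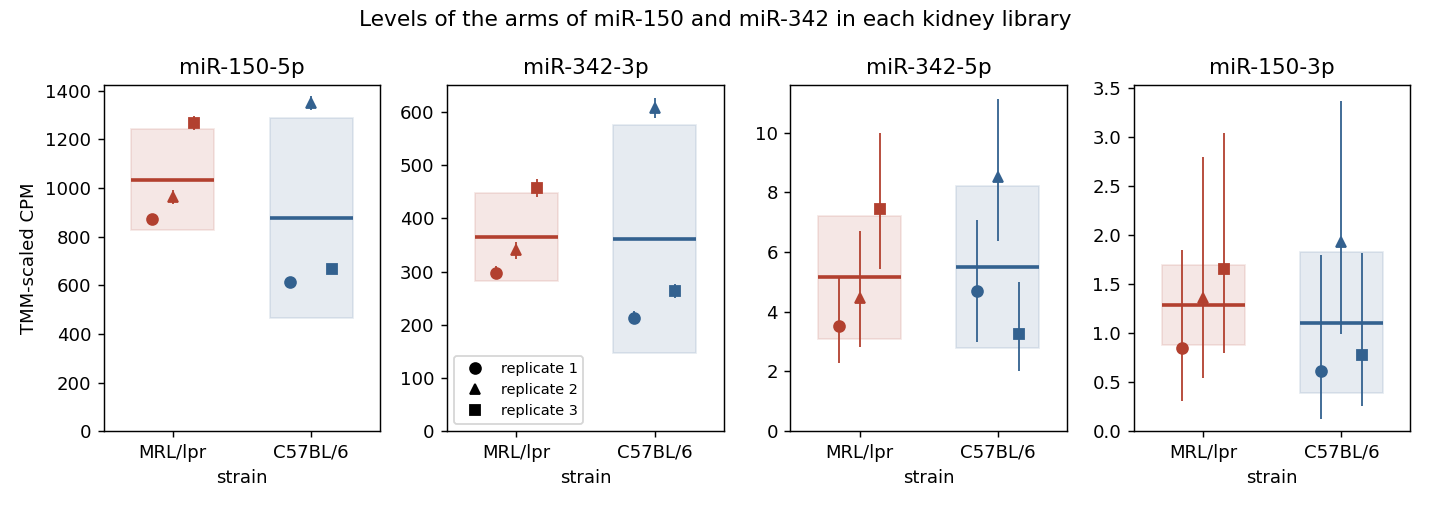
TMM-scaled CPM (y axis, from 0, a separate scale in each panel) of the 4 strands in each library, with MRL/lpr left of C57BL/6 (x axis). Symbols mark replicate numbers, vertical bars are exact 95% Poisson intervals of the count, horizontal lines are group means and shaded boxes are the mean ± SD (n = 3); C57BL/6 replicate 2 is the highest point in every panel, at 1349 CPM for miR-150-5p and 607 CPM for miR-342-3p.

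Of the 3 members tested, 0 passed the threshold (edgeR adjusted p under 0.05), and none had an unadjusted p under 0.05 (the lowest was 0.458; DESeq2 and limma-voom also called 0). Over all 451 miRNAs tested 28 passed, which is 6.21%, and 20.8% had an unadjusted p under 0.05. The median log2 fold change was 0.014 over the 3 members and -0.027 over all tested miRNAs. The groups did not overlap for 28.8% of all tested miRNAs, and for 0 of the 3 members tested.

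C57BL/6 replicate 2 stood high for every member. Its level of miR-150-5p was 2.11 times the mean level in C57BL/6 replicates 1 and 3, and 40 of the 451 tested miRNAs had a larger ratio. For miR-342-3p the ratio was 2.55, with 26 miRNAs above it, and for miR-342-5p it was 2.13, with 37 above it. The library was the highest of all 6 for each of the 3 tested members and for miR-150-3p, while this held for 108 of the 451 miRNAs tested (23.9%). Other leukocyte miRNAs were raised in the same library. The 7 listed miRNAs of activated or mixed leukocytes (both strands of miR-142a, miR-155 and miR-146a, and miR-146b-5p) summed to 7848 to 9167 CPM in MRL/lpr, against 26063 CPM in C57BL/6 replicate 2 and 4982 to 5263 CPM in the other C57BL/6 libraries. Most of that sum was miR-146a-5p, at 25574 CPM in C57BL/6 replicate 2, against 7314 to 8393 CPM in MRL/lpr. Of the 5 tested miRNAs of this list it was the 1 for which that library was the highest of the 6, while all 5 were higher there than in the other C57BL/6 libraries. The 4 listed myeloid miRNAs (both strands of miR-223 and miR-511) summed to 378 to 440.3 CPM in MRL/lpr, against 1200.3 CPM in C57BL/6 replicate 2 and 249 to 255 CPM in the others. The 4 strands of miR-150 and miR-342 summed to 1174 to 1732 CPM in MRL/lpr, against 1966 CPM in C57BL/6 replicate 2 and 831 to 933 CPM in the others. In C57BL/6 replicate 2 the 11 listed miRNAs of kidney epithelium summed to 73638 CPM, the lowest of the 6 libraries, against at least 112585 CPM in each MRL/lpr library. The sum of the 5 listed erythrocyte miRNAs was also lowest there (596 CPM, against 3477 to 4312 CPM in MRL/lpr and 2842 to 3502 CPM in the other C57BL/6 libraries). Nearly all of it was miR-451a (593 CPM there), and the rare miR-486b-5p and miR-144-5p were not lowest in that library. The sum of the 5 mesenchymal ones was highest there (43708 CPM, against 27034 to 34069 CPM in MRL/lpr and 30339 to 36890 CPM in the others). Taken singly, 4 of these 5 were highest in that library, and miR-145a-5p was not. The 2 strands of the endothelial miR-126a summed to 69362 CPM there, within the MRL/lpr range of 58064 to 73074 CPM. That sum was below the 78863 to 82924 CPM of the other C57BL/6 libraries. The minor strands miR-155-3p, miR-146a-3p and miR-511-5p were at 0 or near it in all libraries, at no more than 1.12 CPM. The part of these shifts in the results for miR-150 and miR-342 was not tested.

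Without C57BL/6 replicate 2, the log2 fold change of miR-150-5p was 0.71 ± 0.21 (SE; edgeR adjusted p = 0.0634; unadjusted p = 0.00859), a 1.64-fold higher fitted level in MRL/lpr. That of miR-342-3p was 0.63 ± 0.25 (edgeR adjusted p = 0.139; unadjusted p = 0.0308), and that of miR-342-5p was 0.40 ± 0.44 (edgeR adjusted p = 0.596). All 3 MRL/lpr values then lay above both remaining C57BL/6 values for miR-150-5p and miR-342-3p, and not for miR-342-5p. This held for 22.6% of the 451 miRNAs. It also held for miR-150-3p, which is not among the 451, but only within counting error. Its nearest values were 0.847 CPM (6 counts) in MRL/lpr replicate 1 and 0.779 CPM (5 counts) in C57BL/6 replicate 3. None of the 3 members passed the threshold in this fit, in which 54 of 470 miRNAs passed (11.5%), and 26.6% had an unadjusted p under 0.05. Since this library was high for these miRNAs, leaving it out raises them in MRL/lpr by construction.

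The main strands moved closely together from library to library. The ratio of miR-342-3p to miR-150-5p counts was 0.342, 0.353 and 0.360 in MRL/lpr replicates 1, 2 and 3, against 0.349, 0.450 and 0.396 in C57BL/6 replicates 1, 2 and 3. The MRL/lpr ratios lay close together, and the lowest C57BL/6 ratio fell among them. The mean log2 ratio in MRL/lpr minus that in C57BL/6 was -0.17, smaller in size than the C57BL/6 SD but larger than the MRL/lpr SD (-1.51 ± 0.038 in MRL/lpr and -1.34 ± 0.18 in C57BL/6, SD, n = 3 each; exact two-sided permutation p = 0.3, adjusted p = 0.54 over the 9 ratios computed; with 3 libraries a strain p cannot go below 0.1).

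Among 411 other tested miRNAs with a miRBase name, miR-342-3p had the profile most like that of miR-150-5p, and miR-150-5p the one most like that of miR-342-3p. The measure was the root mean square difference of log2(CPM + 1) over the 6 libraries, after centring each profile on its own mean. It was 0.137 between them, against a median of 0.541 between miR-150-5p and the others and 0.600 between miR-342-3p and the others. The next most like miR-150-5p were miR-17-3p (0.151), a strand of the miR-17-92 cluster hairpin miR-17, then miR-106b-5p (0.195), miR-210-3p (0.212) and miR-3074-2-3p (0.216). For miR-342-3p they were miR-17-3p (0.188), miR-210-3p (0.223), miR-344-3p (0.247) and miR-195a-5p (0.253). miR-17-3p had 4.80, 5.05 and 5.96 CPM in MRL/lpr replicates 1, 2 and 3, against 3.48, 7.87 and 4.05 CPM in C57BL/6 replicates 1, 2 and 3, and so shared the high C57BL/6 replicate 2 at a far lower level. Over the 5 libraries without C57BL/6 replicate 2, miR-342-3p was still the most like miR-150-5p (0.0733), while miR-150-5p came after miR-1199-5p (0.0439) for miR-342-3p. Close behind miR-342-3p in likeness to miR-150-5p came miR-455-5p (0.0927) and miR-1199-5p (0.0949). Of these, miR-455-5p was not rare, at 50.0 to 99.7 CPM in the 5 libraries. miR-1199-5p was rare, at 3.39, 4.27 and 5.96 CPM in MRL/lpr replicates 1, 2 and 3 and 2.46 and 3.12 CPM in C57BL/6 replicates 1 and 3. At such levels the added 1 CPM shrinks the differences. All these profiles share the same libraries and scaling.

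The shares of the minor strands overlapped between the strains. The 3p strand made up 0.0971% to 0.141% of the counts of the miR-150 hairpin in MRL/lpr libraries and 0.1002% to 0.143% in C57BL/6 libraries. The mean share was 0.123% ± 0.0229 in MRL/lpr and 0.120% ± 0.0214 in C57BL/6 (SD, n = 3 each; exact two-sided permutation p = 1.0). In single libraries the 95% Wilson interval was wide, for example 0.0341% to 0.294% in C57BL/6 replicate 1, where 3 of 2995 counts were 3p. For the miR-342 hairpin, 5p was the minor strand, with 1.17%, 1.30% and 1.61% of the counts in MRL/lpr replicates 1, 2 and 3, against 2.16%, 1.38% and 1.23% in C57BL/6 replicates 1, 2 and 3. Without C57BL/6 replicate 1, where the share was highest, the mean log2 ratio of miR-342-3p to miR-342-5p in MRL/lpr minus that in C57BL/6 was -0.050, against 0.20 with all libraries. The group means differed by less than the C57BL/6 SD (1.36% ± 0.224 in MRL/lpr and 1.59% ± 0.498 in C57BL/6, SD, n = 3 each; exact two-sided permutation p = 0.6). The order of the levels was miR-150-5p, miR-342-3p, miR-342-5p and miR-150-3p in each of the 6 libraries. Adapter ligation favours some RNA ends, so levels of different strands are less comparable than levels of 1 strand between libraries.

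Set against miR-142a-3p and miR-155-5p of the same library, miR-150-5p and miR-342-3p were lower in every MRL/lpr library than in every C57BL/6 library, although an exact permutation of 3 against 3 cannot give a p under 0.1. A ratio within a library does not depend on scaling. Both denominators were themselves higher in every MRL/lpr library than in every C57BL/6 library, which lowers most ratios to them. Of 450 tested miRNAs, 436 had a lower mean log2 ratio to miR-142a-3p in MRL/lpr, and 427 a lower one to miR-155-5p. How many of those ratios did not overlap between the strains was not counted. miR-142a, a hairpin active in nearly all blood cells, had 145, 111 and 151 CPM of its 3p strand in MRL/lpr replicates 1, 2 and 3, against 34.4, 88.8 and 25.7 CPM in C57BL/6 replicates 1, 2 and 3. The ratio of miR-150-5p to miR-142a-3p counts was 6.02, 8.67 and 8.37 in MRL/lpr replicates 1, 2 and 3, against 17.7, 15.2 and 25.7 in C57BL/6 replicates 1, 2 and 3. The groups did not overlap, with C57BL/6 replicate 2 included, and the mean log2 ratio in MRL/lpr minus that in C57BL/6 was -1.33 (2.92 ± 0.29 in MRL/lpr and 4.25 ± 0.39 in C57BL/6, SD, n = 3 each; exact two-sided permutation p = 0.1, the smallest possible, adjusted p = 0.225). The ratio of miR-342-3p to miR-142a-3p was 2.06, 3.06 and 3.02 in MRL/lpr replicates 1, 2 and 3, against 6.18, 6.82 and 10.2 in C57BL/6 replicates 1, 2 and 3, with a mean log2 difference of -1.50 (exact permutation p = 0.1, adjusted p = 0.225).

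miR-155-5p is switched on when lymphocytes and macrophages are activated. The ratio of miR-150-5p to miR-155-5p was 5.002, 6.62 and 6.32 in MRL/lpr replicates 1, 2 and 3, against 10.7, 13.2 and 13.03 in C57BL/6 replicates 1, 2 and 3. The groups did not overlap, and the mean log2 difference was -1.04 (exact permutation p = 0.1, adjusted p = 0.225). For miR-342-3p to miR-155-5p the ratios were 1.71, 2.34 and 2.28 in MRL/lpr replicates 1, 2 and 3, against 3.73, 5.92 and 5.16 in C57BL/6 replicates 1, 2 and 3, with a mean log2 difference of -1.21 (exact permutation p = 0.1, adjusted p = 0.225). Without C57BL/6 replicate 2 the mean log2 differences for miR-150-5p and miR-342-3p were -1.49 and -1.57 against miR-142a-3p, and -0.99 and -1.07 against miR-155-5p.

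These ratios are not particular to miR-150 and miR-342. When the ratios of all tested miRNAs to miR-142a-3p were fitted together, 67.3% of 450 were lower in MRL/lpr (limma adjusted p under 0.05), and the median difference was -1.66, further down than for either strand. In that fit the difference was -1.33 ± 0.64 for miR-150-5p (SE; limma adjusted p = 0.0554) and -1.50 ± 0.64 for miR-342-3p (limma adjusted p = 0.0347). Without C57BL/6 replicate 2 it was -1.49 ± 0.31 for miR-150-5p (limma adjusted p = 5.44e-05), in a fit in which 91.3% of 450 were lower. For ratios to miR-155-5p, 72.0% of 450 were lower, with a median of -1.38. The differences were -1.04 ± 0.42 for miR-150-5p (limma adjusted p = 0.0225) and -1.21 ± 0.43 for miR-342-3p (limma adjusted p = 0.0111). The shared denominator makes such ratios move together, while the limma fit pools their variances as if the rows were separate. Its p-values can therefore be too small for 6 libraries. Exact permutation with all 6 libraries gave p = 0.1 for the ratios of miR-150-5p and miR-342-3p to each of the 2 denominators.

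Against miR-223-3p, a granulocyte and monocyte miRNA, the ratios of the strains overlapped. The ratio of miR-150-5p to miR-223-3p was 2.17, 2.61 and 3.82 in MRL/lpr replicates 1, 2 and 3, against 2.76, 1.32 and 2.83 in C57BL/6 replicates 1, 2 and 3. The groups overlapped, the mean log2 difference was 0.35 (exact permutation p = 0.6, adjusted p = 0.771), and without C57BL/6 replicate 2 it was -0.0049. miR-342-3p to miR-223-3p gave 0.741, 0.923 and 1.38 in MRL/lpr replicates 1, 2 and 3, against 0.964, 0.595 and 1.12 in C57BL/6 replicates 1, 2 and 3 (mean log2 difference 0.18; exact permutation p = 0.7, adjusted p = 0.788), and -0.083 without C57BL/6 replicate 2. In the limma fit over all ratios to miR-223-3p, 2 SE to each side of the difference spanned -1.30 to 2.01 for miR-150-5p and -1.47 to 1.84 for miR-342-3p. The spans were -0.51 to 0.50 for miR-150-5p and -0.64 to 0.47 for miR-342-3p without C57BL/6 replicate 2, so the width rests on that library. Over all 450 ratios to miR-223-3p the median difference was 0.029 with all 6 libraries. In that fit 2 ratios were higher and 3 lower in MRL/lpr (limma adjusted p under 0.05). Without C57BL/6 replicate 2 the median was -0.71, with 22 higher and 193 lower. Both strands lay above the median in each fit.

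**Figure D2:**
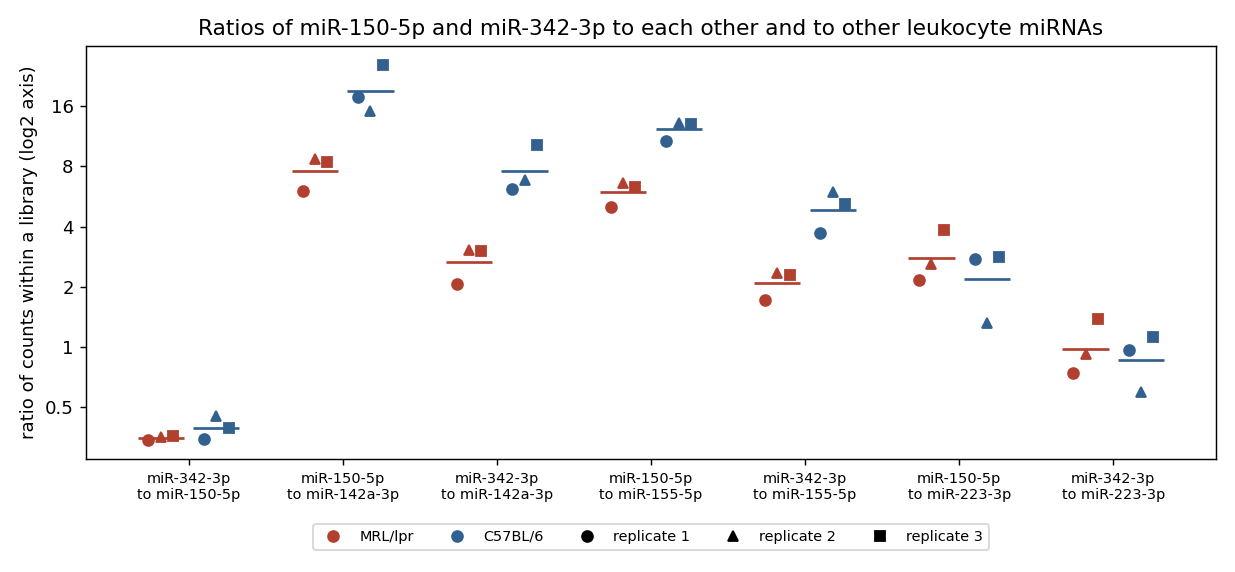
Ratios of counts within each library (y axis, log2 scale) of miR-342-3p to miR-150-5p, and of each of them to miR-142a-3p, miR-155-5p and miR-223-3p (x axis), with MRL/lpr left of C57BL/6. Symbols mark replicate numbers and lines are group means on the log scale (n = 3); the strains do not overlap for the ratios to miR-142a-3p and miR-155-5p (6.02 to 8.67 in MRL/lpr against 15.2 to 25.7 in C57BL/6 for miR-150-5p to miR-142a-3p) and overlap for the others.

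Set beside the leukocyte lists, the members had a median log2 fold change of 0.014, between the medians of the other leukocyte and the myeloid miRNAs; this order was not tested. Of the 5 other leukocyte miRNAs tested, 1 rose in MRL/lpr, miR-155-5p (log2 fold change 1.30 ± 0.30 SE, edgeR adjusted p = 0.0331), and none fell, against 4.21% of all tested miRNAs that rose. The median over these 5 was 1.21, and miR-142a-3p had 1.45 ± 0.45 (edgeR adjusted p = 0.0943). The 3 myeloid miRNAs tested had a median of -0.70 and none passed; miR-223-3p had -0.42 ± 0.64 (edgeR adjusted p = 0.738). Without C57BL/6 replicate 2, 4 of the 5 other leukocyte miRNAs and 1 of the 3 myeloid ones, miR-511-3p, rose (8.94% of all tested did), while none of the members did. The medians were then 1.71 for the other leukocyte miRNAs, 0.71 for the myeloid ones and 0.63 for the members.

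Of 16 miRNAs with known roles in lymphocyte development or activation, 1 rose and 1 fell with all libraries (4.21% and 2.00% of all tested miRNAs did), and their median log2 fold change was -0.22. miR-125b-5p, which restrains B cell differentiation, rose (0.88 ± 0.22 SE, edgeR adjusted p = 0.0451). miR-31-5p, which supports interleukin-2 production in human T cells, fell (-0.92 ± 0.23, edgeR adjusted p = 0.0451). miR-181a-5p, which tunes T cell receptor signalling in thymocytes, averaged 17445 ± 1099.7 CPM in MRL/lpr and 22736 ± 1957 CPM in C57BL/6 (SD, n = 3 each) and did not pass (edgeR adjusted p = 0.133). When C57BL/6 replicate 2 was left out, 3 of the 16 rose and 1 fell (8.94% and 2.55% of all tested miRNAs did), with a median of -0.12. The 3 were miR-125b-5p, miR-21a-5p (log2 fold change 0.92 ± 0.16 SE, edgeR adjusted p = 0.00592), known from activated lymphocytes and injured kidney, and miR-148a-3p (2.08 ± 0.31, edgeR adjusted p = 0.00520), which is linked to B cell tolerance in mice. Many of these 16 are also made by kidney cells.

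**Figure D3:**
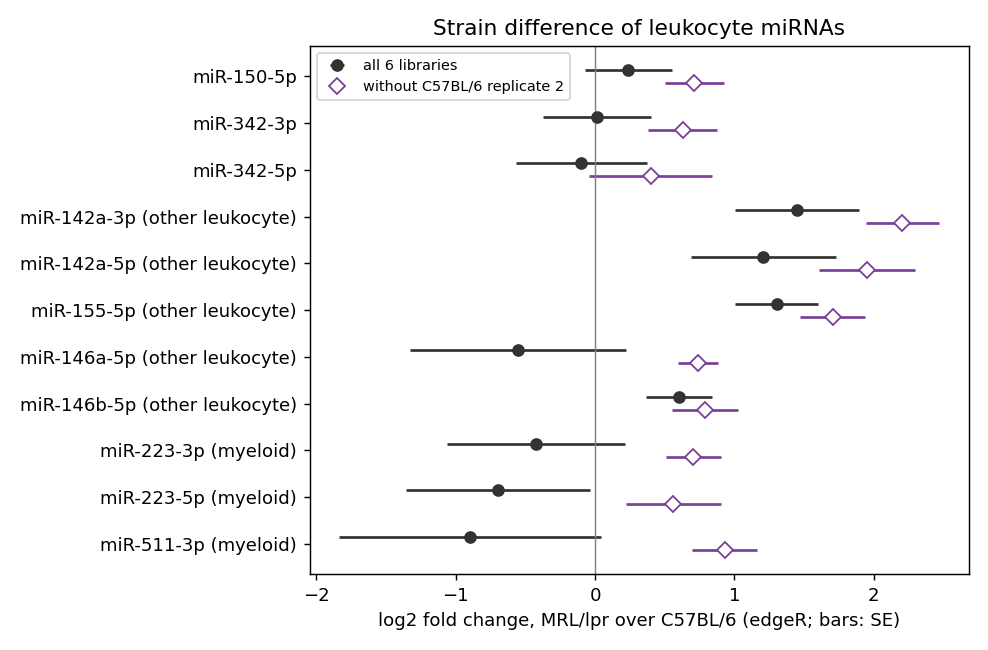
Fitted log2 fold changes, MRL/lpr over C57BL/6 (x axis; bars are SE), for the tested strands of miR-150 and miR-342, other leukocyte miRNAs and myeloid miRNAs (rows), with all 6 libraries (filled circles) and without C57BL/6 replicate 2 (open diamonds). miR-150-5p lies at 0.24 and 0.71, and miR-142a-3p at 1.45 and 2.21; every miRNA shown lies further to the right without that library.

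The direction of the members depended on which libraries entered. With 1 library left out at a time, the log2 fold change of miR-150-5p ran from -0.014, without C57BL/6 replicate 1, to 0.71, without C57BL/6 replicate 2. That of miR-342-3p ran from -0.31, without C57BL/6 replicate 1, to 0.63, without C57BL/6 replicate 2. For miR-342-5p the range was -0.44, without MRL/lpr replicate 3, to 0.40, without C57BL/6 replicate 2. In none of the 50 fits of a member under another setting was the adjusted p below 0.05.

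**Figure D4:**
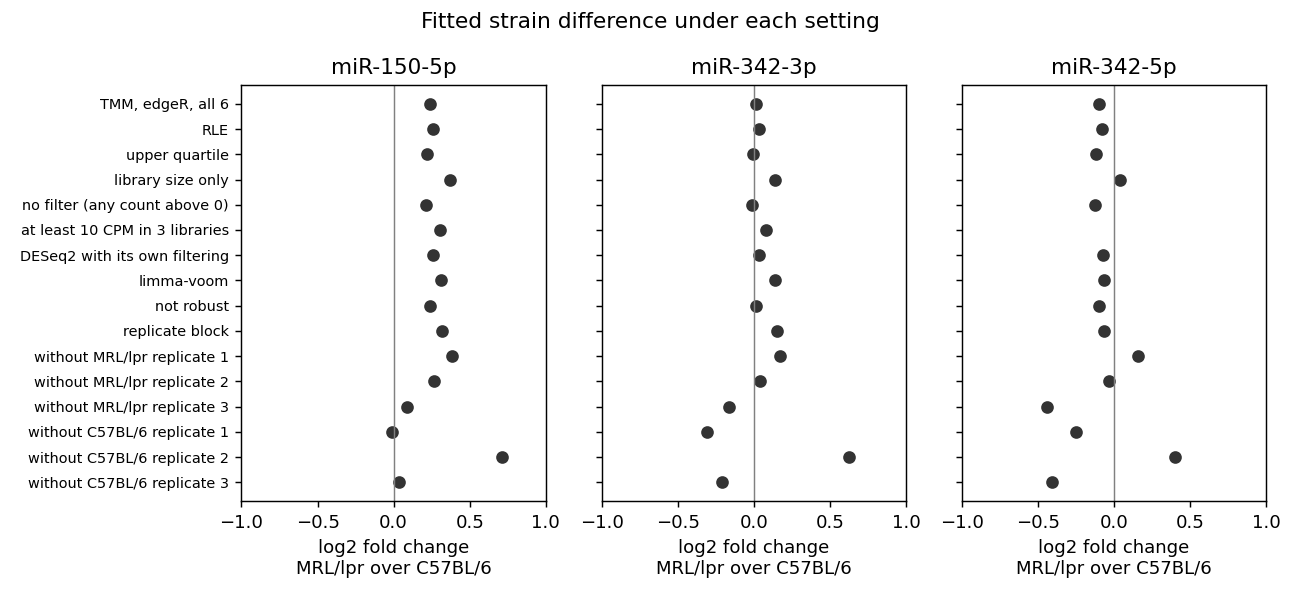
Fitted log2 fold change, MRL/lpr over C57BL/6 (x axis), of miR-150-5p, miR-342-3p and miR-342-5p under each scaling, filter, test and set of libraries (rows). The points without C57BL/6 replicate 2 are the furthest right in each panel, at 0.71, 0.63 and 0.40; miR-342-5p has no point under the 10 CPM filter, which it did not pass.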

How the data were processed

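Small RNA libraries were prepared from kidney total RNA by ligating adapters, PCR and gel sizing, and were read as DNA nanoballs, per the labels' protocols. The authors' deposited table gives counts: whole numbers per mature miRNA, not normalized, 5259528 to 6773829 per library. Bowtie2, DESeq2 and GRCm38.p6 appear in the submitters' processing notes; for strand and for reads with several matches, the handling was not given in the sources used here. Column names gave strain, age and replicate number, which match the sample titles. No library copied another of its strain (chi-square over degrees of freedom: 123 to 726).

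R 4.3.3, edgeR 4.0.16 and limma 3.58.1 were used. The whole table was filtered with filterByExpr (at least 10 counts, and 15 in total), brought to a common scale by TMM, fitted by robust quasi-likelihood for strain alone, and adjusted by Benjamini-Hochberg over 451 miRNAs with a threshold of 0.05. Standard errors come from the coefficient and its F statistic. Within-library ratios used counts + 1 and exact permutation; limma fits of the ratios of all tested miRNAs were added after seeing the data. Both fits were tested on simulated counts. Other settings were RLE, upper-quartile or size-only scaling, other filters, pseudocounts of 0.5 and 5 for ratios, DESeq2 1.42.0, limma-voom, dispersion that was not robust, a replicate block and leaving out each library. Named were the members, the most abundant or called miRNAs of each list (at most 3), and the 5 miRNAs most like each main strand in profile. The members and lists were chosen with earlier results of these data known. RefSeq sequences were matched by name, for 996 of 1190 named entries. Figures were drawn with matplotlib 3.10.9.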

Additional observations from a re-analysis of the deposited data

How the results depend on the processing

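No member passed the threshold under any alternative it could be fitted in. Outside the runs with a library left out, the log2 fold change of miR-150-5p ran from 0.22 to 0.37. That of miR-342-3p ran from -0.0089 to 0.15, reversing to -0.0024 with upper-quartile scaling and -0.0089 without a filter. That of miR-342-5p ran from -0.12 to 0.041, reversing to 0.041 with library-size scaling, under which the median over all tested miRNAs was 0.12. miR-342-5p did not pass the 10 CPM filter. miR-150-3p was fitted without a filter (log2 fold change 0.16 ± 0.68 SE, edgeR adjusted p = 0.935) and by DESeq2 (0.21 ± 0.93 SE). It also passed the filter in some runs with a library left out. Its log2 fold change was 0.45 without MRL/lpr replicate 1 and 0.11 without MRL/lpr replicate 2. The sign turned without C57BL/6 replicate 1 (-0.13) and without C57BL/6 replicate 3 (-0.066). The cause of the reversals was not tested. With 1 library left out, the log2 fold change ran from -0.014 to 0.71 for miR-150-5p, -0.31 to 0.63 for miR-342-3p and -0.44 to 0.40 for miR-342-5p.

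Over all miRNAs, 28 calls became 64 without a filter (1395 miRNAs tested), 51 with DESeq2, 13 with the replicate number as a block, and 5 to 54 with a library left out (54 without C57BL/6 replicate 2, 5 without MRL/lpr replicate 3, 15 and 11 without C57BL/6 replicates 1 and 3). The replicate block gave log2 fold changes of 0.32, 0.15 and -0.063 for miR-150-5p, miR-342-3p and miR-342-5p. Same-numbered libraries did not deviate together (correlations -0.37, 0.034 and -0.37 for numbers 1, 2 and 3). Of the 3 MRL/lpr libraries, 0 correlated best with their own number. The values gave no sign that the numbers pair the samples, but 3 libraries per strain are too few to exclude it.

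With a library left out, mean log2 ratios to miR-142a-3p ran from -1.49 to -1.11 for miR-150-5p and -1.64 to -1.28 for miR-342-3p, and to miR-155-5p from -1.14 to -0.92 and -1.40 to -1.07. Those of miR-150-5p to miR-150-3p ran from -0.094 to 0.16, of miR-342-3p to miR-342-5p from -0.050 to 0.36, of miR-342-3p to miR-150-5p from -0.26 to -0.079, and to miR-223-3p from -0.0049 to 0.54 for miR-150-5p and -0.083 to 0.39 for miR-342-3p. The limma fit over all ratios was chosen after seeing the data. It passed for miR-342-3p to miR-142a-3p (-1.50), miR-150-5p to miR-155-5p (-1.04) and miR-342-3p to miR-155-5p (-1.21). Exact permutation of 3 against 3 could not pass. In the limma fits 67.3% of 450 ratios to miR-142a-3p and 72.0% of 450 to miR-155-5p were lower in MRL/lpr. Passing there is thus not particular to the members.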
